A study of Homo sapiens with 16 samples.

Results

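The genes described are 10 genes of meiosis and the germline, SYCP1, SYCP2, SYCP3, HORMAD1, STAG3, DMC1, RAD51AP2, RNF212B, MAEL and TDRD12, out of 19974 protein-coding genes measured on chromosomes 1 to 22 and X. Their chromatin was followed through the peaks that overlapped each gene's hg38 span extended by 10 kb on each side. The genes were picked with the presence of their peaks in these lists already known, so presence at their gene ends is given as a description and supports nothing. The cells were U87, an established human glioblastoma line labelled as brain tissue, and their accessible chromatin was mapped by NicE-seq, which nicks exposed DNA with the enzyme Nt.CviPII, fills the nicks with biotin-labelled bases and sequences the captured fragments. The 16 libraries form 4 groups of 4. The belinostat group (labelled Control_Bel) received 1 µM belinostat, an inhibitor of histone deacetylases, for 24 h. The AsiDNA group (Asi_DMSO) is named for AsiDNA, a short decoy molecule that looks to the cell like a DNA double-strand break. The combination group (Asi_Bel) carries both names and the same belinostat treatment. The vehicle group (Control_DMSO) carries neither drug. All groups were fixed with formaldehyde. The labels give no dose of AsiDNA, and the culture and treatment protocols name the cells MTU87 and LTAU87, without tying either name to a group. The kind and length of the AsiDNA exposure are therefore not known here.

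Meiosis reduces the chromosome set of germ cells after programmed DNA breaks are repaired on the homologous chromosome. SYCP1 forms the transverse filaments and SYCP2 and SYCP3 the lateral elements of the synaptonemal complex, the protein zipper that joins homologues, while HORMAD1 marks unsynapsed axes and STAG3 is the meiotic subunit of cohesin. DMC1 is the meiosis-specific recombinase, and RAD51AP2 and RNF212B (a RING-finger protein linked to crossover formation) are counted among the recombination genes. MAEL and TDRD12 serve the piRNA pathway, which silences transposons in germ cells. In somatic cells most of these genes are silent, and DNA methylation of CpG dinucleotides together with repressor complexes that recruit histone deacetylases is known to keep germline promoters shut.

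A single deposited peak list stands for the 4 libraries of each group. There is thus no replicate error for any value below, no p-value was computed, and the depth per library is unknown. The lists held 138937 peaks for belinostat, 138273 for AsiDNA, 134865 for the combination and 130318 for vehicle, with median widths of 408, 410, 401 and 398 bp in that order. A longer list can hold more weak peaks for that reason alone. The strength of a peak is given as its percentile, that is, the rank of the authors' fold enrichment over local background among all peaks of the same list, from 0 (weakest) to 100 (strongest). Percentiles place a peak within its own list and are not levels. Of the 6 glial and mesenchymal markers checked, VIM, CD44, SOX2, NES and OLIG2 had a peak within 1000 bp of a gene end in every list and GFAP in none.

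Peaks near the 10 genes were counted in each list. The belinostat list had 29, the AsiDNA list 33, the combination list 28 and the vehicle list 30 peaks within 10 kb of them, covering 13.7, 16.1, 13.1 and 14.3 kb in that order. Per 100 kb of extended gene span, the median over the 10 genes was 3.78 peaks with belinostat, 3.39 with AsiDNA, 3.09 with the combination and 2.55 with vehicle, and the median over all protein-coding genes was 7.39, 7.05, 7.07 and 6.60 in the same order. The median of the 10 was thus below that of all genes in each list, but the genes varied. These peaks include gene-end peaks whose presence was known when the genes were chosen. Gene length was not matched either, so nothing is read from this comparison. RAD51AP2 had the densest peaks, at 12.7 per 100 kb with belinostat, 12.7 with AsiDNA, 8.46 with the combination and 8.46 with vehicle, above the median of all genes in every list. DMC1 was above that median with AsiDNA (7.40) and vehicle (8.64), and STAG3 with AsiDNA (8.12).

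Merging peaks that overlapped by at least 1 bp gave 52 regions near the 10 genes, out of 112527 regions within 10 kb of any protein-coding gene. Of the 52, 16 (30.8%) had a peak in every list, against 54.5% of all regions near genes. A further 4 (7.69%) were held by 3 lists, 12 (23.1%) by 2 lists and 20 (38.5%) by a single list, against 10.1%, 14.9% and 20.5% near all genes. The 52 include the gene-end regions whose presence was known when the genes were chosen, and regions of the same gene share their neighbourhood, so nothing is read from these shares. Strength followed sharing: peaks in the 16 regions common to all lists had a median percentile of 69.8, and those in single-list regions one of 9.77, as over all genes, where the medians were 64.8 and 12.5.

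**Figure D1:**
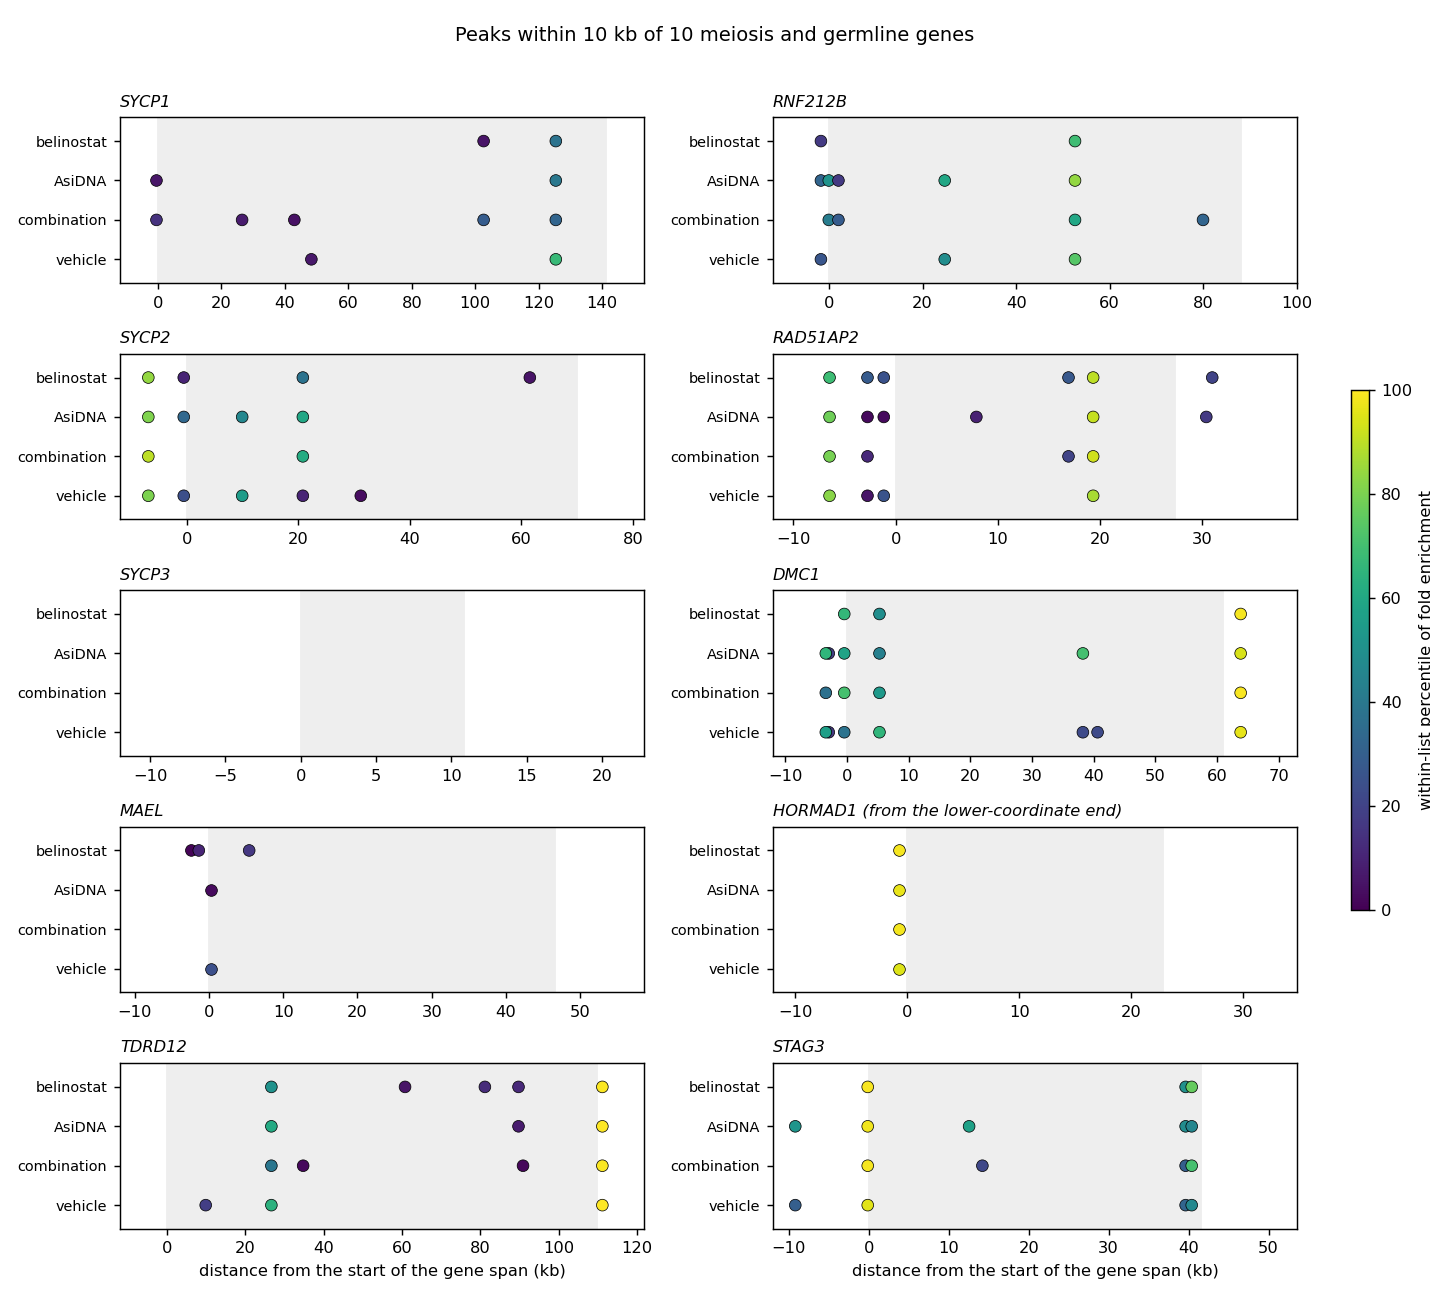
Position of each peak near the 10 genes, as the distance in kb of the merged region's centre from the start of the gene span (grey), in the belinostat, AsiDNA, combination and vehicle lists from top to bottom. Colour gives the within-list percentile of fold enrichment. SYCP3 has no point in any list and MAEL none in the combination list. Bright points recur in all 4 lists near STAG3, HORMAD1, TDRD12, DMC1, RAD51AP2 and SYCP2. Those near HORMAD1, DMC1 and SYCP2 cover the starts of GOLPH3L, DDX17 and PPP1R3D, and that near TDRD12 lies within SLC7A9. The region over the STAG3 start also covers the listed start of GPC2.

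Transcript starts were examined first. The RefSeq table used lists 11 starts for 9 of the genes, and HORMAD1 has no entry in it. A peak lay within 1000 bp of 5 starts in every list, of 2 in some lists and of 4 in no list. Over all 22132 starts of protein-coding genes these shares were 61.9%, 7.15% and 30.9%. STAG3 had the strongest peak, over both its listed starts, at percentile 98.8 with belinostat, 98.0 with AsiDNA, 98.8 with the combination and 95.4 with vehicle. RAD51AP2 was next, at percentiles 90.2, 91.4, 92.9 and 86.99 in the same order, and RNF212B stood at 69.0, 83.7, 59.7 and 73.7. The peak at the DMC1 start ranked at percentile 66.3 with belinostat, 58.0 with AsiDNA, 70.6 with the combination and 38.0 with vehicle, so it had its lowest rank in the vehicle list and stood above RNF212B in the combination list only. The remaining starts were weak or had no peak: SYCP2 and MAEL had peaks in some lists, and SYCP1, SYCP3, TDRD12 and the second MAEL start had none.

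**Figure D2:**
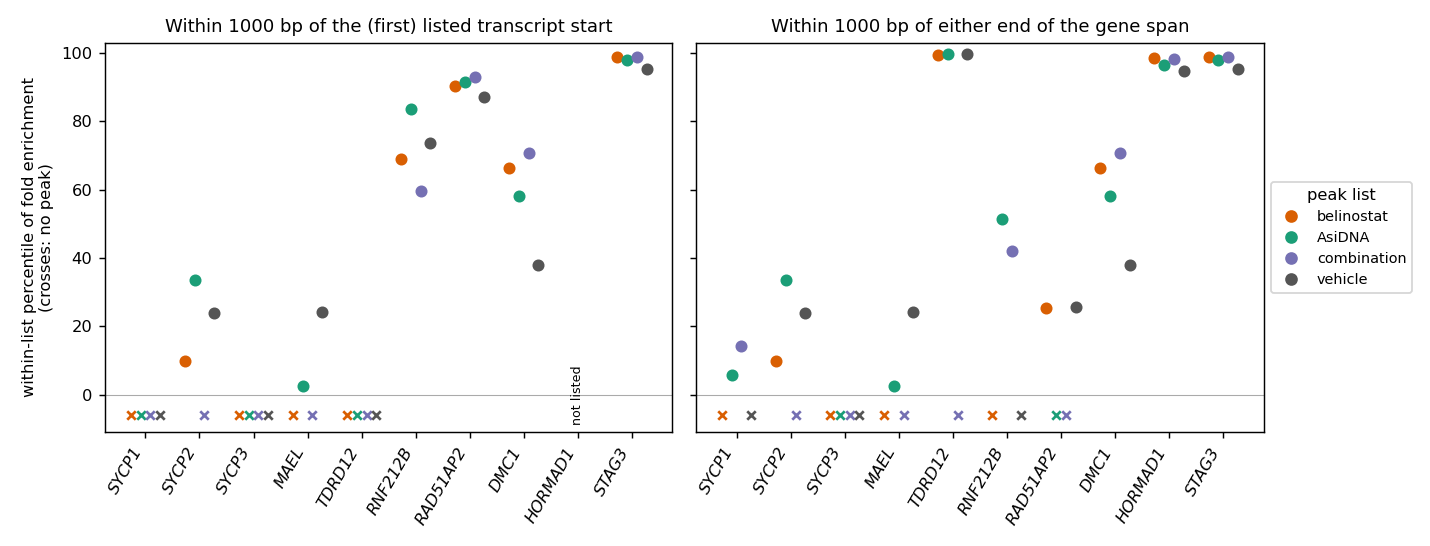
Within-list percentile of the strongest peak within 1000 bp of the first listed transcript start (left) and of either end of the gene span (right), for each gene and list. Crosses mean no peak, and no start is listed for HORMAD1. RNF212B and RAD51AP2 have points of all 4 lists at the transcript start but of 2 lists each at the gene ends.

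The bases at these starts are shown because the starts differ in which lists have a peak, while several have similar CpG content. Each sequence runs 5′ to 3′ on the gene's own strand from 250 bases before the start to 50 bases from it onwards (RefSeq, GRCh38.p14), and capitals mark CpG dinucleotides. STAG3 (its first start, chr7:100177474-100177773, plus strand), RNF212B (chr14:23237686-23237985, plus) and RAD51AP2 (chr2:17518391-17518690, minus) had a peak in every list. SYCP2 (chr20:59933588-59933887, minus) had one in every list but the combination, and MAEL (its first start, chr1:166975332-166975631, plus) in the AsiDNA and vehicle lists. TDRD12 (chr19:32719517-32719816, plus) and SYCP3 (chr12:101739413-101739712, minus) had none.
STAG3: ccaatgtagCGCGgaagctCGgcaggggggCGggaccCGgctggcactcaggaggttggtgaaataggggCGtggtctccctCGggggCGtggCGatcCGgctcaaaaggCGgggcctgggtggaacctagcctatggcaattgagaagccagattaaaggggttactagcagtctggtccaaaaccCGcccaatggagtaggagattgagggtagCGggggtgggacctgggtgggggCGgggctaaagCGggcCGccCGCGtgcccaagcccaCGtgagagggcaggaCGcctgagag
RNF212B: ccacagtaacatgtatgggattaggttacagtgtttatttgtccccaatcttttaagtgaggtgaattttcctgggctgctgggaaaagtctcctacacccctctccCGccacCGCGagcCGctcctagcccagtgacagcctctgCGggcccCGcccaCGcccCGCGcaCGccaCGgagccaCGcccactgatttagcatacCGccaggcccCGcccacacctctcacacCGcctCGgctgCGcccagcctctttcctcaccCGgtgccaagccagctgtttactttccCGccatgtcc
RAD51AP2: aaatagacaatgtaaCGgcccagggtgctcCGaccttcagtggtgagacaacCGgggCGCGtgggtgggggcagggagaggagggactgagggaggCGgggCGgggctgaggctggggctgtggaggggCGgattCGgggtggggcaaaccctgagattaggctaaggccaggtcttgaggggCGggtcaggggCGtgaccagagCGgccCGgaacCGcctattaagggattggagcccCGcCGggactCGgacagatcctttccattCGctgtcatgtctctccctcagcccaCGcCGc
SYCP2: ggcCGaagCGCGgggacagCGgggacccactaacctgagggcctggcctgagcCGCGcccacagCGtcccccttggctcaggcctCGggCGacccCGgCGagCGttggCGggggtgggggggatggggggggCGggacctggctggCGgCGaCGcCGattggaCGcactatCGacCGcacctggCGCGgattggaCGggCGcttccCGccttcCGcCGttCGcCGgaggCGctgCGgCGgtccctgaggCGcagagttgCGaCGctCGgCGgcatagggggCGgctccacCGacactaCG
MAEL: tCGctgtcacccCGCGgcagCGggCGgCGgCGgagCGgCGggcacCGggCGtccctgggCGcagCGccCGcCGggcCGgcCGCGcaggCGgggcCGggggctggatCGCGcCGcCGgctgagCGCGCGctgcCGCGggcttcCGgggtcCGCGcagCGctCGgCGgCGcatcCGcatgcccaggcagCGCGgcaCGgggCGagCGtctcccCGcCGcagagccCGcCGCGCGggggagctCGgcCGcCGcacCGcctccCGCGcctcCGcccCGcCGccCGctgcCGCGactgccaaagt
TDRD12: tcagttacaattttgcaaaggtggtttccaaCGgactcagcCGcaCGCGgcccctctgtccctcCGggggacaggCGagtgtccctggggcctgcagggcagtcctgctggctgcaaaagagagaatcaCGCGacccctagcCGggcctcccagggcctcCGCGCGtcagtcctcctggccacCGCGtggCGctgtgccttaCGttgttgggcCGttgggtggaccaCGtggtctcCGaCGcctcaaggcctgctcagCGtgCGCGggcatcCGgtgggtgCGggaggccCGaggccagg
SYCP3: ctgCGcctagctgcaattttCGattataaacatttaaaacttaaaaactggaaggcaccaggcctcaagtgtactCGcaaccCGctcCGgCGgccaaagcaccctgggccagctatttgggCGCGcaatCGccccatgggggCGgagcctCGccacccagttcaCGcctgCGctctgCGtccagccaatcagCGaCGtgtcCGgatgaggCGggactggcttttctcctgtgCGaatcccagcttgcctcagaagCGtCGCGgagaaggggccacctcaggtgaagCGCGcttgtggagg

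CpG content overlapped between the starts with and without a peak. The starts with a peak in every list held 19 CpG in 300 bases for RNF212B, 20 for RAD51AP2, 20 and 30 for the STAG3 starts and 29 for DMC1. Those with no peak held 15 for SYCP1, 24 for SYCP3, 26 for TDRD12 and 27 for the second MAEL start. SYCP2, with 41, and the first MAEL start, with 60, were the richest, and their peaks were weak. Over all protein-coding genes the median was 26 CpG at starts with a peak in every list and 6 at starts with none (quartiles 3 and 19), so SYCP3, TDRD12 and the second MAEL start lay above the upper quartile of starts without a peak. The number of CCA, CCG and CCT triplets on both strands, the sites of the nicking enzyme Nt.CviPII, was 33 for SYCP1, 39 for SYCP3, 52 for TDRD12 and 39 for the second MAEL start, against a median of 45 at starts with a peak in every list and 36 at starts with none.

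**Figure D3:**
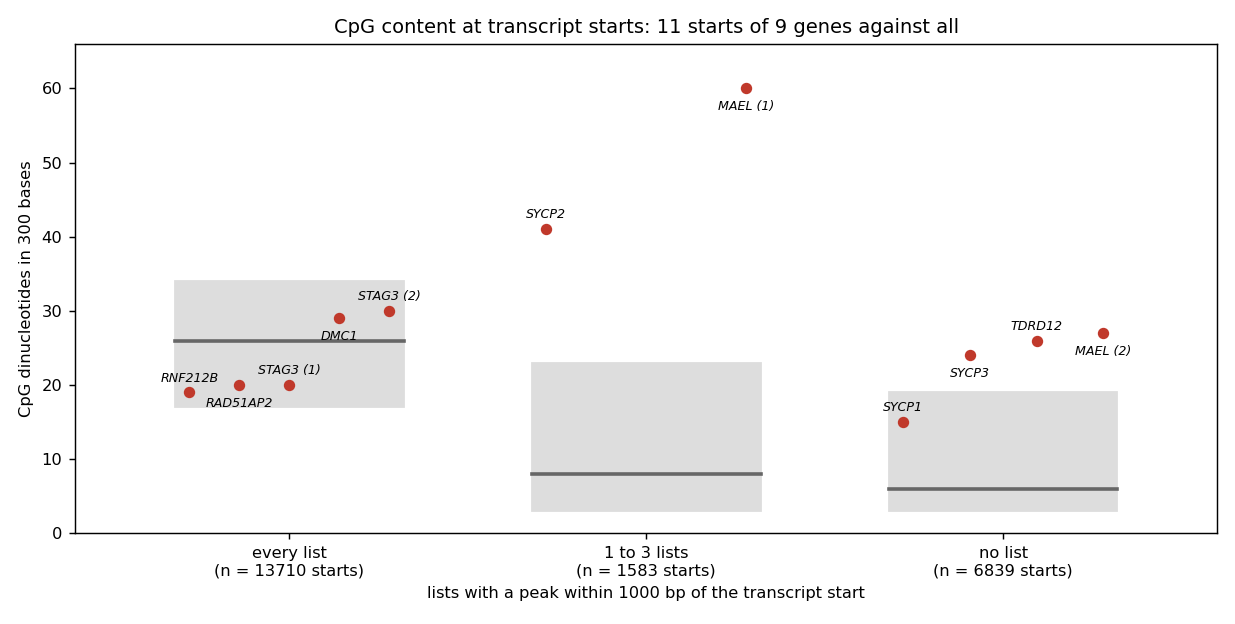
Number of CpG dinucleotides in the 300 bases around each of the 11 listed starts (points, named by gene), grouped by how many lists have a peak within 1000 bp. Grey boxes are the quartiles and the dark line the median over all starts of protein-coding genes in that class. SYCP3, TDRD12 and the second MAEL start lie above the box of the starts without a peak, and SYCP2 and the first MAEL start above that of the starts with a peak in some lists.

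Short motifs were counted in the same windows, on both strands. GCGGGA, part of the sites of E2F-family factors, occurred in 9 of the 11 windows and in 33.5% of all promoters of this length. It was found in STAG3, RNF212B, SYCP2, MAEL, TDRD12 and SYCP3 among the sequences shown. CACGTG, the E-box core, occurred in 4 windows, both of STAG3, TDRD12 and the second of MAEL, against 8.34% of all promoters. The STAG3 windows overlap each other, so they are not separate matches. TGACGTCA, the full cyclic AMP response element, occurred in none, against 2.26% of all promoters. These are matches of letters and carry no statement on binding.

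At the ends of the gene span, within 1000 bp of either end, 6 of the 10 genes had a peak with belinostat, 8 with AsiDNA, 5 with the combination and 7 with vehicle, against 68.6%, 68.5%, 67.9% and 67.4% of all genes. DMC1, HORMAD1 and STAG3 had one in every list (64.1% of all genes), SYCP3 in none (27.4%), and the other 6 in some lists (8.47%). Because this presence chose the genes, nothing is read from these counts. SYCP1 and RNF212B were present in both AsiDNA lists only, as were 0.27% of all genes. MAEL was present in both lists without belinostat only (0.776% of genes), RAD51AP2 in both lists without AsiDNA only (0.215%), and SYCP2 and TDRD12 in every list but the combination (0.581%). What lies behind each call differed from gene to gene.

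The lateral element gene SYCP3 was the emptiest. No peak of any list lay within 10 kb of it, which was the case for 1401 genes or 7.01% of all protein-coding genes. The closest peak came from the AsiDNA list, 19945 bp from the gene's start, with the closest belinostat peak at 20076 bp, the combination at 22273 bp from the gene's other end and vehicle at 29781 bp from that same end. SYCP3 spans 10.8 kb on chromosome 12 (101728648 to 101739462), the shortest of the 10.

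SYCP2, its partner in the lateral element, had a weak peak upstream of its start. In that region (chr20:59933944-59934418) the peak ranked at percentile 9.86 with belinostat, 33.6 with AsiDNA and 24.0 with vehicle, and the combination list had none. The region lay 307 bp from the SYCP2 start and 165 bp from the listed start of FAM217B, so it cannot be given to 1 of the 2 genes. The strongest region near SYCP2 (chr20:59939930-59941145) covered the start of PPP1R3D, 6293 bp away, at percentiles 83.7 with belinostat, 80.5 with AsiDNA, 89.96 with the combination and 80.3 with vehicle. Inside SYCP2, a region at chr20:59912615-59913024 was held by every list, at percentiles 38.0 with belinostat, 59.7 with AsiDNA, 61.5 with the combination and 10.0 with vehicle. Its width was 332, 286, 386 and 217 bp in that order, the vehicle peak being both the narrowest and the lowest in rank. A region at chr20:59923538-59923860 was present in the AsiDNA (46.4) and vehicle (54.9) lists only.

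SYCP1, the transverse filament gene, is the longest at 141 kb and had 2 peaks with belinostat, 2 with AsiDNA, 5 with the combination and 2 with vehicle. The region before its start (chr1:114853386-114853848) held an AsiDNA peak of 463 bp at percentile 5.81 and a combination peak of 306 bp at 14.1, near the bottom of both lists. It ended 240 bp before the gene span and 1015 bp before the listed start, which is why the start itself counted as having no peak. A region present in both belinostat lists only lay inside the gene at chr1:114956548-114956904, at percentile 5.45 with belinostat and 28.6 with the combination. The only region common to all lists, at chr1:114979318-114979646 toward the far end of the gene, ranked at 38.0 with belinostat, 40.0 with AsiDNA, 32.1 with the combination and 67.5 with vehicle.

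The single peak near HORMAD1, the axis protein, belonged to a neighbour's start. The region at chr1:150696909-150697736, 324 bp outside the lower-coordinate end of HORMAD1, covered the listed start of GOLPH3L. It ranked at percentile 98.6 with belinostat, 96.5 with AsiDNA, 98.3 with the combination and 94.7 with vehicle, and its width was 641, 736, 608 and 777 bp. No peak of any list lay inside HORMAD1 or within 10 kb of its other end.

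At STAG3, the cohesin subunit, the region over the start (chr7:100177157-100178001) also covered the listed start of its neighbour GPC2. Its widths of 804 bp with belinostat, 825 bp with AsiDNA, 845 bp with the combination and 806 bp with vehicle were among the most even of the 16 shared regions. A pair of shared regions lay near the far end of the gene, at chr7:100217131-100217574 and chr7:100217844-100218385. The second of them, 949 bp inside the gene's end, ranked at 76.4 with belinostat and 70.6 with the combination, and at 45.9 with AsiDNA and 46.5 with vehicle. A region over the start of GAL3ST4, 8909 bp from STAG3 (chr7:100168215-100168815), was present in the AsiDNA (52.1) and vehicle (29.7) lists only.

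Among the recombination genes, DMC1 had a region over its start (chr22:38570095-38571153) in every list. The peak was 916 bp wide with belinostat, 910 bp with AsiDNA, 750 bp with the combination and 782 bp with vehicle, and the vehicle peak stopped 189 bp short of the start, whereas the others covered it. The region with the highest ranks near DMC1 lay 2135 bp from its other end and covered the start of DDX17 (chr22:38505677-38507012), at percentiles of 98.6 with belinostat, 93.9 with AsiDNA, 98.8 with the combination and 96.2 with vehicle. There the peak measured 1260 bp with AsiDNA and 1336 bp with the combination, against 825 bp with belinostat and 895 bp with vehicle. Inside DMC1, a region at chr22:38531654-38532203 was present with AsiDNA (percentile 70.1, 550 bp) and vehicle (22.6, 381 bp) and in neither belinostat list. The same held for a narrow region 2844 bp upstream of the start (chr22:38573027-38573250), at 18.4 with AsiDNA and 16.2 with vehicle.

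For RAD51AP2, the gene-end call and the transcript start gave different pictures. The gene span in the table runs from 17510579 to 17537859 on chromosome 2, whereas the listed start is at 17518440, inside it. The region at that start (chr2:17518119-17518980) was held by every list and measured 779 bp with belinostat, 832 bp with AsiDNA, 761 bp with the combination and 810 bp with vehicle. The gene-end call came from a region 884 bp outside the span and 666 bp from the listed start of VSNL1 (chr2:17538743-17539306). Its peak was 490 bp wide with belinostat and 553 bp with vehicle, at percentiles 25.3 and 25.6. The AsiDNA list had a 206 bp peak there at percentile 2.59, which began 1214 bp from the gene end and so fell outside the window, and the combination list had none. Closer to the start, a region present in both belinostat lists only (chr2:17520849-17521070) ranked at 27.1 with belinostat and 20.1 with the combination.

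RNF212B showed the same split between gene end and start. Its span begins at 23185336 on chromosome 14, while the listed start is 52.6 kb further in. The region over that start (chr14:23237679-23238174) was in every list, 462 bp wide with belinostat, 423 bp with AsiDNA, 353 bp with the combination and 383 bp with vehicle. The region at the beginning of the span (chr14:23185126-23185416) had an AsiDNA peak at percentile 51.4 and a combination peak at 41.9, and the other lists had none there. A further region 1863 bp into the gene (chr14:23187199-23187475) was also held by both AsiDNA lists only, at 16.9 with AsiDNA and 28.6 with the combination. Both lay near the start of SLC7A8, at 1466 and 3539 bp, whose own region (chr14:23183269-23183918) was present in every list but the combination. At chr14:23209763-23210365 the pattern was the other one, with peaks of 603 bp with AsiDNA (59.7) and 286 bp with vehicle (48.8) and none in the belinostat lists.

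Of the piRNA pathway genes, MAEL had the fewest peaks after SYCP3 and HORMAD1, with 3 in the belinostat list, 1 in the AsiDNA list, none in the combination list and 1 in the vehicle list. The region just after its first start (chr1:166975621-166976047) held an AsiDNA peak of 366 bp at percentile 2.48 and a vehicle peak of 389 bp at percentile 24.3. The 3 belinostat peaks lay in regions of their own, 2272 and 1257 bp before the gene and 5292 bp inside it, at percentiles 1.02, 10.4 and 16.4. No region near MAEL was held by more than 2 lists. None of its peaks ranked above percentile 24.3. The outermost belinostat peak lay 58 bp from the listed start of its neighbour ILDR2.

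TDRD12 had the strongest peak of all 10 genes, beyond its far end. The region at chr19:32830565-32831188, within SLC7A9, ranked at percentile 99.5 with belinostat, 99.6 with AsiDNA, 99.5 with the combination and 99.8 with vehicle. The nearest edge of the peak lay 996 bp from the gene end with belinostat, 985 bp with AsiDNA, 1018 bp with the combination and 997 bp with vehicle. The absence of the combination from the gene-end call is thus a shift of a peak border across the 1000 bp limit, and the peak itself was in every list. Inside the gene, a region at chr19:32745848-32746990 was held by every list, with 1137 bp for belinostat, 782 bp for AsiDNA, 918 bp for the combination and 1008 bp for vehicle. The other 6 regions inside TDRD12 were weak, between percentiles 1.87 and 18.3, and none was held by more than 2 lists.

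At the outer limit of 10 kb, the farthest region counted was the one over the start of GAL3ST4, 8909 bp from STAG3, and the nearest not counted was a region held by every list 10671 bp from RNF212B. For the other genes the first region beyond the limit lay between 13.2 kb (SYCP2) and 43.7 kb (HORMAD1) away.

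The regions whose presence followed 1 drug on both backgrounds are given as counts. In both belinostat lists only there were 2 of 52 regions (3.85%), those in SYCP1 and RAD51AP2, against 6.27% of all regions near genes. In both lists without belinostat only there were 6 regions (11.5%), against 4.86%, namely 2 at DMC1 and 1 each at SYCP2, MAEL, RNF212B and STAG3. Both AsiDNA lists only held 3 regions (5.77%), 1 at SYCP1 and 2 at RNF212B, against 1.09%, and both lists without AsiDNA only held 0, against 0.789%. The single-drug lists only held 1 region, in TDRD12 (1.29% of all regions), and the combination and vehicle lists only held 0 (0.592%). The gene-end regions at SYCP1, RNF212B and MAEL are among these counts and among the values that chose the genes, so the counts are a description.

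Between pairs of lists, regions differed in both directions. Each comparison uses its own pair of lists, and the remaining lists could hold the region or not. For belinostat over vehicle, 10 of the 52 regions (19.2%) were present with belinostat and absent with vehicle, against 17.5% of all regions near genes. The reverse held for 11 (21.2%), against 11.8%. For AsiDNA over vehicle, 7 (13.5%) were present with AsiDNA and absent with vehicle, against 12.2%, and the reverse held for 4 (7.69%), against 7.38%. For the combination over vehicle the counts were 11 (21.2%) against 15% and 13 (25%) against 11.8%. These 3 comparisons share the vehicle list. For the combination over AsiDNA, 8 regions (15.4%) were in the combination and not in AsiDNA, against 12.8%. The reverse held for 13 (25%), against 14.5%. For the combination over belinostat, 10 (19.2%) were in the combination and not in belinostat, against 8.02%. The reverse held for 11 (21.2%), against 10.5%. These counts too include gene-end regions whose differing presence chose the genes. For the combination over vehicle, the 13 in vehicle and not in the combination include those at SYCP2, MAEL and RAD51AP2. Nothing is read from how the counts compare with the background.

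The 16 shared regions showed no common shift in width. Their median width ratio was 1.07 for belinostat over vehicle (0.825 to 1.53), 1.07 for AsiDNA over vehicle (0.713 to 1.41) and 1.04 for the combination over vehicle (0.782 to 1.78). Over all 61340 shared regions near genes the medians were 1.01, 1.04 and 0.994. Belinostat peaks were wider than vehicle peaks in 10 regions and narrower in 6, AsiDNA peaks likewise in 10 and 6, and combination peaks in 9 and 7. Over all shared regions near genes, 52%, 60.7% and 48.4% were wider than in vehicle, in the same order. For the combination over AsiDNA the median ratio was 0.943 (all regions 0.954), and for the combination over belinostat it was 0.979 (all regions 0.986).

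Ranks moved in both directions too. The median change in percentile at the 16 regions was 3.32 points for belinostat over vehicle, with a range from -29.5 to 29.9, 0.0318 points for AsiDNA over vehicle (-27.5 to 49.7) and 3.07 points for the combination over vehicle (-35.4 to 51.5). The corresponding medians over all shared regions were 2.96, 0.965 and 2.39 points. The lowest change in all 3 comparisons was at the SYCP1 region, which ranked lower in each drug list than in vehicle. The highest was at the second STAG3 region near the far end of the gene for belinostat, and at the region inside SYCP2 for AsiDNA and for the combination. The DMC1 start ranked higher in each drug list than in vehicle. A shared region inside DMC1, 5029 bp from that start (chr22:38564668-38565154), ranked lower in each. Its percentiles were 49.2 with belinostat, 43.3 with AsiDNA and 53.6 with the combination, against 65.3 with vehicle.

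**Figure D4:**
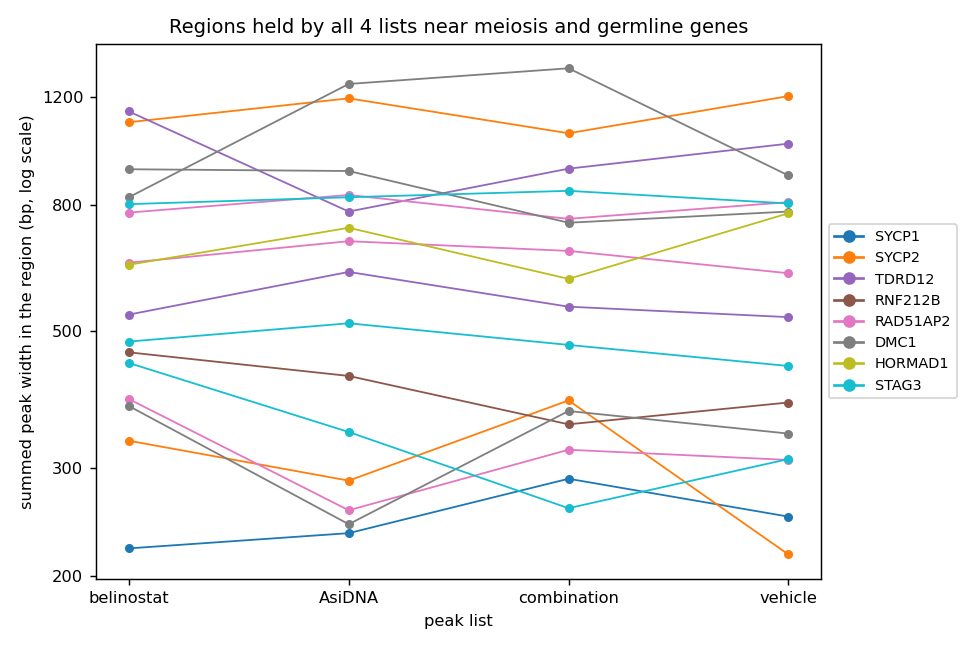
Summed peak width in bp (log scale) of the 16 regions with a peak in every list, in the belinostat, AsiDNA, combination and vehicle lists, coloured by gene. Lines join the values of 1 region and stand for no order. The DDX17 start near DMC1 is the widest with AsiDNA (1260 bp) and the combination (1336 bp), and lines cross in both directions.

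Other genes of the same processes were counted by the same gene-end rule. Whether their peaks lie at a neighbouring gene, as at HORMAD1 and TDRD12, was not examined. By this rule 64.1% of all protein-coding genes had a peak in every list, 8.47% in some lists and 27.4% in none. Of 9 other synaptonemal complex and axis genes matched, 6 had a peak in every list, 0 in some lists and 3 in none. SYCE2 and SYCE1L, parts or relatives of the central element, had the highest values of the lowest percentile over the 4 lists, 86.0 and 76.3, although SYCE3 ranked above SYCE1L in every list but AsiDNA. Of 27 other recombination genes, 11 had a peak in every list, 3 in some and 13 in none. CCNB1IP1, a crossover regulator, and PSMC3IP, the HOP2 protein that assists DMC1, had lowest percentiles over the lists of 91.8 and 88.1. SPO11, the enzyme that makes the meiotic breaks, and MSH4, a crossover factor, had a peak in the vehicle list only, at percentiles of 5.22 and 5.46, and RNF212 in every list but vehicle, at up to 43.9. For RNF212 every list had a peak in the merged region.

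Of 30 other piRNA and germ cell genes, 8 had a peak in every list, 6 in some and 16 in none. TDRKH and TDRD1, both Tudor proteins of the piRNA pathway, had lowest percentiles of 95.4 and 81.6. FKBP6 was present in both AsiDNA lists only (40.0 with AsiDNA and 25.1 with the combination), TDRD6 with AsiDNA only (32.8), and DAZL, STRA8 and TEX15 at percentiles of at most 18.3. The germ cell gene DDX4, by contrast, had a peak in every list, at percentiles from 70.5 to 75.6. All 16 somatic counterparts, among them STAG1 and STAG2, the somatic cohesin subunits, had a peak in every list. Over all genes 64.1% did. No drug list differed from vehicle by more than 3 genes in any of these 4 related gene lists.

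**Figure D5:**
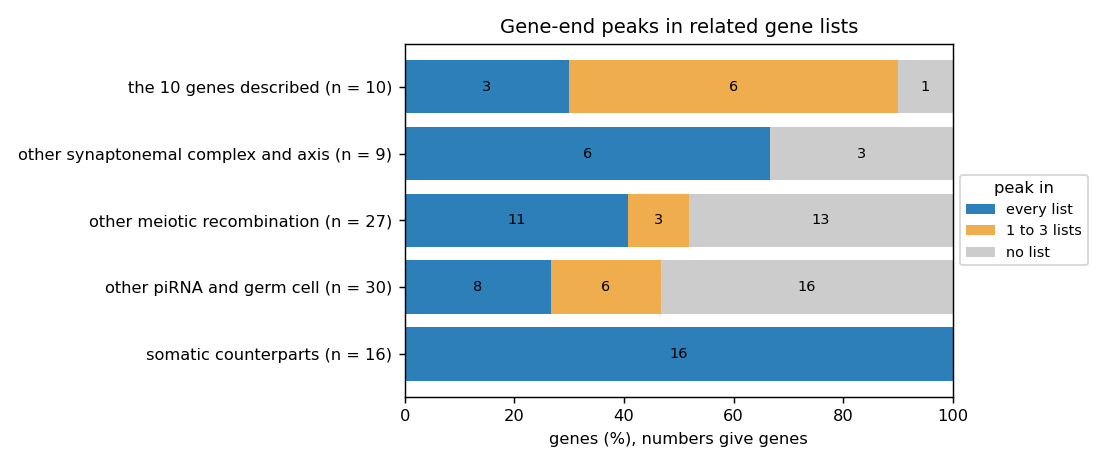
Share of genes (%) with a peak within 1000 bp of a gene end in every list, in 1 to 3 lists or in no list, for the 10 genes described, 3 lists of other meiotic and germline genes and the somatic counterparts. Numbers inside the bars are genes. All 16 somatic counterparts and 3 of the 10 genes have a peak in every list, as do 64.1% of all protein-coding genes. The 10 genes were picked with this presence known, so nothing is read from their bar.

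For the 6 genes whose gene-end presence differed between lists, the genes with the same presence and the closest percentiles were found over the lists that hold the peak. The closest were ILDR2 for MAEL (summed difference 0 over 2 lists, since both genes lie at the same peak), VTCN1 for SYCP1 (1.90 points over 2 lists), USP17L15 for RAD51AP2 (2.41 over 2), MCF2L2 for SYCP2 (6.64 over 3), LOC107983987 for RNF212B (11.7 over 2) and OVOL3 for TDRD12 (62.6 over 3). The distance for TDRD12 was the largest of the 6.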

How the data were processed

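NicE-seq libraries of 16 U87 samples were grouped by the treatment field of the labels, and 1 peak list is named by all 4 libraries of a group. The submitters' processing notes name hg38, MACS2, deepTools, Picard, SAMtools, Bowtie2 and Trim Galore 0.5.0. The sources used here do not give their options, an input control or how libraries were pooled. The authors' fold is a linear ratio of each peak's signal to its local background, the deposited q-values are on the −log10 scale, and the deposited score was not used. None is scaled between lists, and folds were used only as ranks within a list.

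Only chromosomes 1 to 22 and X entered, and peaks were merged where they overlapped by at least 1 bp. Gene spans came from the RefSeq table (GRCh38.p14), and transcript starts and 300-base sequences from the RefSeq promoter table. Exons were not used. All 10 genes matched, and 98 of 99 listed genes did. The genes and lists were chosen with earlier results of these data known. All 10 genes are named, with the regions at their ends, their strongest region and those that follow 1 drug on both backgrounds. Genes of the related lists were named, up to 5 per list that differ between lists and the 2 strongest present in every list. DDX4 was named in addition, as a germ cell marker. Alternatives were lists cut to equal length, a −log10 q threshold of 5, and other extensions, windows, overlap rules and ranks. Functions were tested on simulated lists. Versions were matplotlib 3.10.9, pandas 2.3.3, numpy 2.4.6 and Python 3.11.15.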

Additional observations from a re-analysis of the deposited data

Results flagged for a closer look

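A region of 246 bp inside TDRD12 (chr19:32809360-32809605) had a peak with belinostat alone (percentile 11.5) and AsiDNA alone (7.49) and none with the combination or vehicle. Belinostat thus went 1 way without AsiDNA and the other way with it, and the difference was not tested. Such regions made up 1.29% of all regions near genes.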

How the results depend on the processing

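With 1 list per group no replicate could be left out. No paired analysis was possible because the 4 libraries of a group share 1 list that carries no replicate number. Of 97 values recomputed under the alternatives, 75 kept their value within the tolerance (counts within 1.5 times, widths within 0.1 on the log2 scale, percentiles within 5 points), 21 moved and 1 turned. Counts of genes with a gene-end peak moved in 0 of 24 cases, although single genes changed: TDRD12 had a peak in every list with a window of 2000 bp and in none with 500 bp, RAD51AP2 in none with 500 bp, and RNF212B in every list with 2000 bp, while SYCP1 had none at −log10 q of 5. The MAEL call held vehicle alone with lists of equal length and at −log10 q of 5. At 2000 bp the calls of MAEL and RAD51AP2 each held belinostat, AsiDNA and vehicle. SYCP2 lacked belinostat at −log10 q of 5. Without extension the peaks near the genes numbered 17 with belinostat, 19 with AsiDNA, 20 with the combination and 17 with vehicle, so the combination had the most, whereas with 10 kb it had the fewest (28), and regions in every list numbered 10. With 50 kb the peaks numbered 83 with belinostat, 86 with AsiDNA, 81 with the combination and 76 with vehicle, and there were 58 regions in every list, 5 in both AsiDNA lists only and 3 in both lists without AsiDNA only. With peaks at −log10 q of 5 or more, 1 region was in both AsiDNA lists only and 1 in both lists without AsiDNA only, the width ratio of the combination over vehicle turned to 0.999, and the median percentile was 53.2 with belinostat, 48.3 with the combination and 48.2 with vehicle, against 38.0, 38.1 and 42.2 with all peaks. With lists of equal length, 1 region followed belinostat (both its lists only) and 1 the absence of AsiDNA (both such lists only), and the median percentile with belinostat was 45.8. Ranking by −log10 q gave median percentiles of 39.9 with AsiDNA, against 51.4 by fold, and 31.9 with the combination, against 38.1. Longer extensions and thresholds change how many peaks enter by construction; the other causes were not tested. Depth is unknown, so an absent peak is no measure of closed chromatin.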
